A study of Mus musculus with 10 samples.

Results

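Chemokine ligands and their receptors were followed in bulk RNA-seq of mouse sarcomas. The members were taken by symbol from the deposited count table, as the protein-coding genes named Ccl, Cxcl, Ccr or Cxcr with a number, together with Cx3cl1, Cx3cr1, Xcl1, Xcr1 and Ackr1 to Ackr4. They came to 63 of the 56750 features, 41 ligands and 22 receptors. The rule uses symbols and no expression value, but the family was picked with earlier results of these data known.

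Chemokines are small secreted proteins that guide the movement of cells, mostly leukocytes, along concentration gradients. The CC, CXC, CX3C and XC families are named for the spacing of their first cysteines, and most of them act through G protein-coupled receptors named CCR, CXCR, CX3CR or XCR. The atypical receptors (ACKR) bind chemokines without the usual G protein signal and remove or transport them. In tumors, chemokines are known for drawing in monocytes, neutrophils and lymphocytes, and macrophages, endothelial cells, fibroblasts and tumor cells can all make them.

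Tumors of 2 mouse models were compared. The dFLEx group held 3 tumors (170019, 170024 and 170025) of genotype dFLEx CDS +/-, which carry 1 copy of a CIC::DUX4 transgene, the fusion oncogene of CIC::DUX4 sarcoma, knocked into Rosa26 behind the CAG promoter and tagged with HA. The transgene is switched on only where both Cre and FLP recombinase act, and in the model both were given as plasmids electroporated into the hind limb muscle of mice with an intact immune system. The KP group held 2 tumors (3800 and 3802) of the KP genotype, which includes p53fl/fl, that is, loss of p53. How recombination was started in the KP mice, and the age of each mouse when its tumor was taken, are not given in the sources used here. RNA of each flash-frozen tumor, with all its cell types, was split into duplicate libraries. The second library of KP tumor 3802 was not analysed here, so this tumor rests on 1 library and the other 4 tumors on 2. Duplicates were summed, and the tumor was the replicate. Which animals the tumors came from is not stated beyond these numbers, so p-values measure the spread between tumors as labelled.

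Summed counts ran from 20503474 in KP 3802 to 82138251 in dFLEx 170025, and 3 counts, the limit taken for a gene without counts, corresponded to between 0.0378 and 0.122 CPM (counts scaled by TMM to a common total of 1000000). These limits cover counting error only. The fusion transcript was counted 2026 to 18828 times in every dFLEx library, 0 times in both libraries of KP 3800 and 6 times in that of KP 3802, which fits the labels. Trp53, the floxed gene of the KP model, was at 77.5, 85.1 and 104 CPM in the dFLEx tumors and at 162 and 82.6 CPM in KP 3800 and 3802. A count over the whole gene cannot show the loss of a floxed part, so this is no check of the KP label. Macrophage markers summed to between 1083 and 1269 CPM in the dFLEx tumors, against 2644 and 5311 CPM in KP 3800 and 3802. T cell markers (6.79 to 9.17 CPM in dFLEx, 11.03 and 48.6 CPM in KP) and B cell markers (3.69 to 6.81 CPM in dFLEx, 3.94 and 42.5 CPM in KP) were highest in KP 3802. Dendritic cell markers (20.4 to 35.5 CPM in dFLEx, 36.3 and 35.1 CPM in KP) and NK cell markers (2.81 to 5.36 CPM in dFLEx, 4.65 and 20.4 CPM in KP) were scarce, and the sums of mast cell, pericyte and erythroid markers overlapped between the groups. The dendritic markers did not move together. Zbtb46 (14.7, 13.9 and 24.6 CPM in dFLEx, 2.86 and 4.59 CPM in KP) and Cd209a were higher in every dFLEx tumor. Itgax (2.04, 4.06 and 5.90 CPM, 28.7 and 17.8 CPM), Flt3, Clec9a and Xcr1, itself a member, were lower in every one, and Siglech overlapped. Endothelial markers summed to between 196 and 510 CPM in dFLEx and to 131 and 79.9 CPM in KP, and all 5 myocyte markers were higher in every dFLEx tumor. Between duplicates of 1 tumor, members with at least 100 counts in both libraries differed by a median of 1.07-fold to 1.25-fold and by 1.48-fold at most. In such bulk samples, fewer cells of a type and less RNA per cell cannot be told apart.

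More of the tested chemokine members had a lower than a higher fitted level in dFLEx against KP tumors. Their median moved most when KP 3802 was left out, and so did the median of all tested genes. By the sign of the fitted log2 fold change, 39 members were lower and 15 higher, against 13940 and 10803 of all tested genes. Of the 63 members, 54 passed the filter on low counts, 52 of them with tumors of both groups above its count minimum and 2 (Xcr1 and Ccr8) through KP tumors only. None of the 54 passed the edgeR quasi-likelihood test on tumor sums at an adjusted p under 0.05 (smallest adjusted p, 0.0744 for Ccl5), where 0.182% of the 24743 tested genes did. At an unadjusted p under 0.05, 18 members (33.3%) were lower in dFLEx, against 4.93% of all tested genes, and 3 (5.56%) were higher, against 5.65%. Leaving out 1 dFLEx tumor brought the 21 members at an unadjusted p to 13 without 170019, 8 without 170024 and 12 without 170025. No share of all tested genes stands beside these counts, so the drops are not read as particular to the members. Without KP 3802, the KP tumor of 1 library, 9 of 55 tested members were lower at an unadjusted p, against 6.34% of all genes, and 6 were higher, against 8.56%. By the values alone, 23 members (42.6%) lay lower in every dFLEx tumor than in either KP tumor, among them 17 of the 18 and also Xcr1 and Ccr8, and 7 (13%) lay higher in every one. Over all tested genes these shares were 11.7% and 13.7%. The count of members on the higher side was thus close to the background of all genes. The median log2 fold change of the 54 members, dFLEx against KP, was -0.98, and that of all tested genes was -0.18. Without KP 3802 these medians were -0.17 and 0.34, and without dFLEx 170025 they were -0.73 and -0.26. They were -1.28 and -0.16 without 170019, -1.22 and -0.07 without 170024, and -1.16 and -0.07 without KP 3800.

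With DESeq2 on the same tumor sums, 8 of 52 members (15.4%) passed an adjusted p under 0.05, all lower in dFLEx, where 2.7% of the genes with an adjusted p were lower and called. They were Ccl5, Cxcl9, Cxcl10, Cxcl11, Cxcl3, Ccl2, Ccl12 and Cx3cr1. With the libraries taken as independent samples in edgeR, which counts duplicates of 1 tumor as replicates, 18 of 51 members (35.3%) passed, 16 lower and 2 higher, against 17.1% of all genes.

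**Figure D1:**
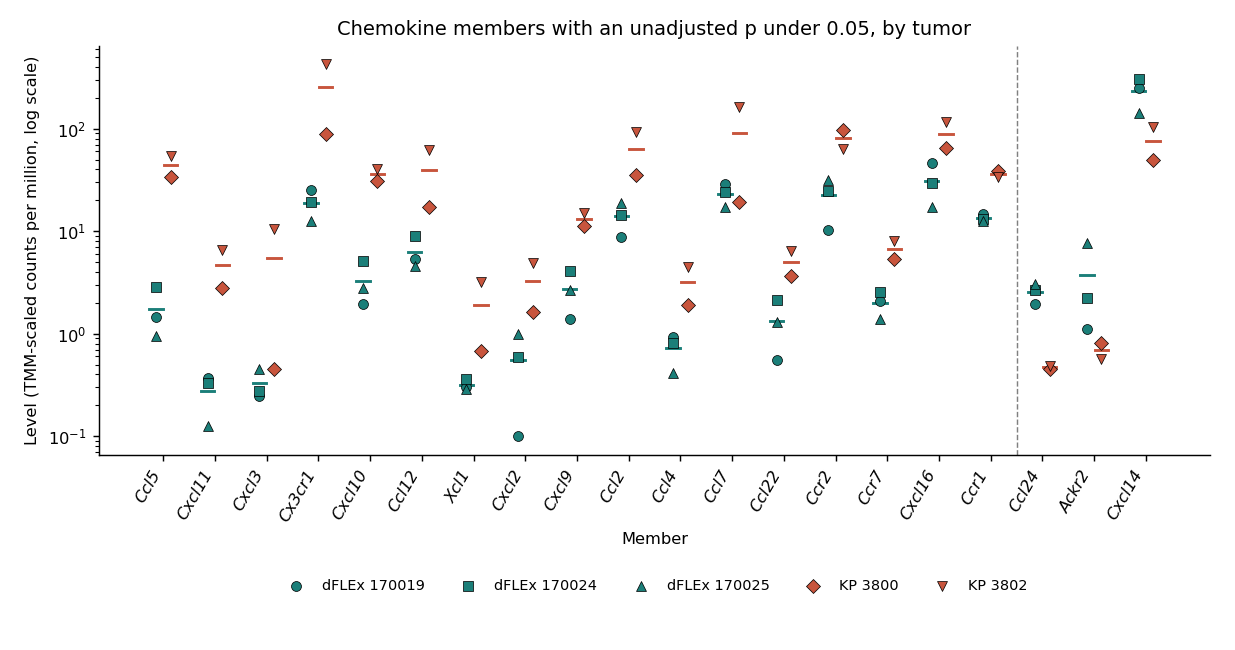
Level of 20 of the 21 members with an unadjusted p under 0.05 in each tumor (y axis, TMM-scaled CPM on a log scale; x axis, member), with dFLEx tumors in green, KP tumors in orange and horizontal lines at the group means. The 17 members left of the dashed line had a lower fitted level in dFLEx and the 3 to the right a higher one, and the groups overlapped for Ccl7 only.

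The 3 interferon-inducible CXC ligands were lower in every dFLEx tumor. Cxcl9, Cxcl10 and Cxcl11 are induced by interferons, mainly interferon gamma, and bind Cxcr3, the receptor of activated T cells and NK cells. Cxcl10 (ENSMUSG00000034855, chr5:92494497-92496748 in GRCm39, minus strand, within the span of Art3 on the other strand) was at 1.97, 5.12 and 2.81 CPM in dFLEx 170019, 170024 and 170025 and at 31.2 and 40.5 CPM in KP 3800 and 3802. The lowest KP tumor was 6.098-fold above the highest dFLEx tumor. Its log2 fold change was -3.44 ± 0.66 SE, adjusted p = 0.103 (edgeR), and fold changes in parentheses are given in this form throughout. Cxcl11 was measured at 0.373, 0.329 and 0.126 CPM in dFLEx and 2.79 and 6.62 CPM in KP (-4.09 ± 0.88 SE, adjusted p = 0.125), and its highest dFLEx level lay 7.49-fold under the lowest KP level. Cxcl9 was at 1.39, 4.06 and 2.696 CPM in dFLEx and 11.2 and 15.03 CPM in KP (-2.27 ± 0.67 SE, adjusted p = 0.253). The order of the 5 tumors differed between these genes within dFLEx, where 170024 was highest for Cxcl9 and Cxcl10, but no dFLEx tumor reached a KP tumor for any of them. Their receptor Cxcr3 was scarce, at 0.498, 1.11 and 0.794 CPM in dFLEx and 1.73 and 2.28 CPM in KP. It also lay lower in every dFLEx tumor, with a fold change of -1.32 ± 0.84 SE on the log2 scale and an adjusted p of 0.738.

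Ccl5, which attracts T cells and monocytes, had the largest fitted difference of the members with an unadjusted p under 0.05. Ccl5 (ENSMUSG00000035042, chr11:83416604-83421344, minus strand) was at 1.44, 2.86 and 0.945 CPM in the dFLEx tumors and at 33.5 and 54.2 CPM in KP 3800 and 3802. The gap between the groups was 11.7-fold, wider than the 3.03-fold range inside dFLEx and the 1.62-fold range inside KP (-4.65 ± 0.73 SE, adjusted p = 0.0744). It was also the sole member with an adjusted p under 0.05 when KP 3802 was left out, at a log2 fold change of -4.24. In that fit the KP side is 1 tumor, assumed to vary like the others.

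The sequence just upstream of these genes and of Cxcl14, the most abundant member on the other side, is shown because the interferon-inducible ligands and Ccl5 are textbook targets of interferon response factors and NF-kappa-B. Each line gives the 250 bases before the start of the canonical GENCODE M39 transcript, read from GRCm39 on the gene's own strand, which is the minus strand for these 5 genes. Capitals mark matches to the interferon-stimulated response element (GAAA, any 2 bases, GAAA) and to the kappa-B consensus, both searched on either strand. The canonical start of Cxcl14 lies just outside its span in the deposited table.
Cxcl10, chr5:92496749-92496998: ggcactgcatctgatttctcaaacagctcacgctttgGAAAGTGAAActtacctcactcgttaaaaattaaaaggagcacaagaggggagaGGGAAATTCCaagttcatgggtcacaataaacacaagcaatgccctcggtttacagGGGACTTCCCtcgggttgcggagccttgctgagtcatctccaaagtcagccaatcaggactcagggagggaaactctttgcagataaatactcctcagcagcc
Ccl5, chr11:83421346-83421595: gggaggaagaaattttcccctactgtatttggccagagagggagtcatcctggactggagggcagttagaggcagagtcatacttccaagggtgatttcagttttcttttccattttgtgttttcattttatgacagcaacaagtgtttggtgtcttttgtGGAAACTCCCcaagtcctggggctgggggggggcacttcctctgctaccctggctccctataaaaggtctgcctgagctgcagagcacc
Cxcl9, chr5:92475946-92476195: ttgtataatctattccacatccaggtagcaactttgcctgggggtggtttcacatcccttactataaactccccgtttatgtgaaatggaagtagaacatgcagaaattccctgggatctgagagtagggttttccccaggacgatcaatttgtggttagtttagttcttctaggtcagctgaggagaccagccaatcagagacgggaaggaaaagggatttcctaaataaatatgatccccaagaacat
Cxcl11, chr5:92513345-92513594: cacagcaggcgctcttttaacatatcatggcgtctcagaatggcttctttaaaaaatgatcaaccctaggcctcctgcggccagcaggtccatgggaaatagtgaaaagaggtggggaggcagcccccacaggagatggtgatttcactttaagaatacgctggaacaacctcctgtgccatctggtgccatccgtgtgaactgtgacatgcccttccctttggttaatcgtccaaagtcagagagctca
Cxcl14, chr13:56444425-56444674: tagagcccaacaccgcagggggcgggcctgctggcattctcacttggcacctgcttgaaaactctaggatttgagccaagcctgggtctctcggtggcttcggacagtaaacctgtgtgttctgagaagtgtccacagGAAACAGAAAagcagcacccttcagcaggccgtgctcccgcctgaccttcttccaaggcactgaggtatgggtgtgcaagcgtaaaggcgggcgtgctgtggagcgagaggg

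The Cxcl10 window held 1 response element, with its first base at -213, and 2 kappa-B matches, at -159 and -103 from the start. The Ccl5 window held 1 kappa-B match, at -89, and no match to the letters of the response element searched here. The windows of Cxcl9 and Cxcl11 held neither sequence. For Ccl5, Cxcl9 and Cxcl11 alike, this says only that these exact letters are not in these 250 bases. Sites that differ from them were not searched. Cxcl14, which differed in the other direction, had a response element at -112. Over all members, the response element was in 3 of 63 windows (Ccl19, Cxcl10 and Cxcl14), against 3.31% of the 21630 protein-coding windows of the same length. The kappa-B consensus was in 11 of 63, against 4.21%, and among them were Cxcl1, Cxcl2, Cxcl3 and Cxcl5 of the neutrophil-attracting group. The gamma-activated sequence (TTCNNNGAA) was in 7 of 63, against 7.73%. A match is a description of the letters and not a measured binding site.

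Among the inflammatory CC ligands, Ccl2 and Ccl12, which bind the monocyte receptor Ccr2, were lower in every dFLEx tumor, while Ccl7, a further Ccr2 ligand, and Ccl8, the most abundant ligand per kilobase, were not. Ccl2, the main monocyte attractant, was at 8.68, 14.5 and 18.97 CPM in the dFLEx tumors and 35.5 and 92.6 CPM in KP (-2.19 ± 0.66 SE, adjusted p = 0.26). Ccl12, a mouse relative of Ccl2, was at 5.398, 8.93 and 4.57 CPM in dFLEx and 17.3 and 61.9 CPM in KP (-2.65 ± 0.72 SE, adjusted p = 0.211). KP 3802 stood 2.61-fold above KP 3800 for Ccl2 and 3.59-fold above it for Ccl12, yet KP 3800 too lay above every dFLEx tumor. Ccl7 was different, at 28.7, 23.8 and 17.1 CPM in dFLEx and 19.1 and 163 CPM in KP. KP 3800 lay among the dFLEx tumors, and without KP 3802 the log2 fold change of Ccl7 turned from -1.97 to 0.30. Ccl8, which binds several CC receptors, had its KP tumors on either side of the dFLEx range, with 104, 71.8 and 57.4 CPM in dFLEx and 20.2 and 186 CPM in KP (-0.41 with both KP tumors and 1.96 without 3802).

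The remaining ligands of this group were mostly scarce. Ccl4 was at 0.9204, 0.815 and 0.416 CPM in dFLEx and 1.89 and 4.51 CPM in KP (-2.16 ± 0.83 SE, adjusted p = 0.406), and its neighbor Ccl3 was at 0.597, 0.746 and 0.227 CPM and 1.07 and 1.3003 CPM (-1.18 ± 1.01 SE, adjusted p = 0.844). Both attract macrophages and T cells, and both were lower in every dFLEx tumor. Ccl6 and Ccl9, which act through Ccr1 in mice, were abundant in both groups. Ccl9 was at 187, 93.96 and 73.4 CPM in dFLEx and 65.5 and 150.1 CPM in KP, and Ccl6 was at 25.6, 56.4 and 124 CPM and 48.4 and 42.7 CPM. For neither did the groups separate, and the spread within dFLEx was 2.55-fold for Ccl9 and 4.85-fold for Ccl6. Of the 11 tested ligands of this group, 5 were lower at an unadjusted p under 0.05, against 4.93% of all tested genes. The 5 included Ccl7, for which the groups overlapped. Only 1 was higher, against 5.65%, and the median log2 fold change was -1.18.

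Of the receptors of these ligands, Ccr2 and Ccr1 were lower in every dFLEx tumor, while Ccr3, given with the eotaxins, was higher in every one. Ccr2 was at 10.3, 24.7 and 31.8 CPM in the dFLEx tumors and 97.7 and 62.9 CPM in KP (-1.85 ± 0.65 SE, adjusted p = 0.348), and here KP 3800 was the higher of the KP tumors. Ccr1, a receptor of macrophages and neutrophils, had the tightest groups, at 14.7, 13.1 and 12.6 CPM against 38.2 and 33.7 CPM (-1.42 ± 0.54 SE, adjusted p = 0.395). Of the 9 tested CC receptors, 4 were lower at an unadjusted p under 0.05, against 4.93% of all tested genes. None was higher, against 5.65%.

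Cx3cr1 had the largest difference among the receptors with an unadjusted p under 0.05, and its ligand did not follow it. Cx3cr1 marks patrolling monocytes, many tissue macrophages and some NK cells, and its ligand Cx3cl1 (fractalkine) is held on the surface of endothelial and other cells until it is shed. Cx3cr1 was at 24.98, 19.5 and 12.6 CPM in dFLEx 170019, 170024 and 170025 and at 88.5 and 426 CPM in KP 3800 and 3802 (-3.76 ± 0.77 SE, adjusted p = 0.117). The KP tumors differed from each other by 4.82-fold, and the lower of them stood 3.54-fold above the highest dFLEx tumor. Without KP 3802 the log2 fold change was -2.20. Cx3cl1 was at 62.8, 116 and 217 CPM in dFLEx and 119.8 and 59.7 CPM in KP (0.56 ± 0.70 SE, adjusted p = 0.899), so the groups overlapped and the highest tumor was dFLEx 170025.

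The pair Xcl1 and Xcr1, through which NK cells and T cells reach cross-presenting dendritic cells, was low throughout. Xcl1 was at 0.299, 0.364 and 0.2897 CPM in dFLEx and 0.672 and 3.17 CPM in KP (-2.58 ± 1.02 SE, adjusted p = 0.418), and without KP 3802 its log2 fold change was -1.06. Xcr1 was at 0.174, 0.139 and 0.126 CPM and 0.9404 and 0.894 CPM, on 117 counts over all libraries. It passed the filter on low counts through the KP tumors only, so a difference was built in and no fold change is given.

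**Figure D2:**
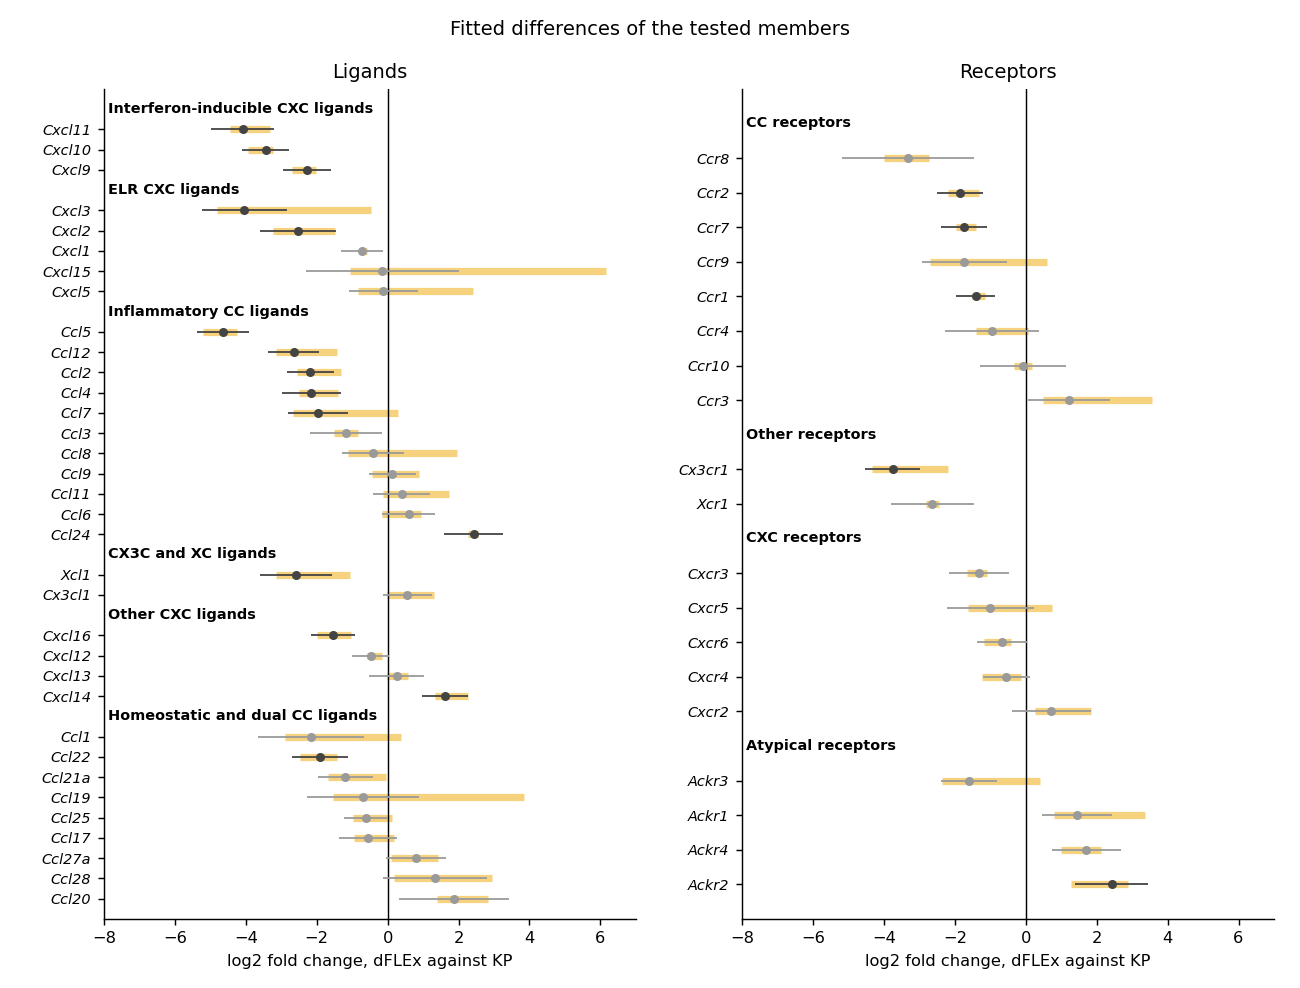
Fitted log2 fold change of 53 of the 54 tested members, dFLEx against KP (x axis), by role (y axis), with bars of 1 SE and yellow bands spanning the fits that leave out 1 tumor. Members with an unadjusted p under 0.05 are in dark grey, and wide bands such as those of Cxcl3, Ccl7, Ccl8 and Ackr3 show members whose value rested on 1 KP tumor. Xcr1 and Ccr8 are drawn but passed the filter through KP tumors only.

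Of the 5 tested neutrophil-attracting CXC ligands, which bind Cxcr2, 2 were lower at an unadjusted p under 0.05, against 4.93% of all tested genes. None was higher, against 5.65%, and of the 2, Cxcl3 rested on KP 3802. All 5 had a lower fitted level, but the values of Cxcl5 (-0.12 ± 0.97 SE, adjusted p = 0.986) and Cxcl15 (-0.15 ± 2.15 SE, adjusted p = 0.991) were small beside their SE. Cxcl15 had 29 counts over all libraries, and without KP 3802 the log2 fold change of Cxcl5 was 2.42. Cxcl3 was at 0.249, 0.277 and 0.453 CPM in dFLEx but at 0.457 and 10.5 CPM in KP 3800 and 3802. Its fitted difference of -4.04 ± 1.20 SE (adjusted p = 0.255) shrank to -0.46 without 3802. Cxcl2 was at 0.0995, 0.5895 and 0.983 CPM in dFLEx and 1.61 and 4.88 CPM in KP (-2.52 ± 1.07 SE, adjusted p = 0.459), with a 9.87-fold range among the dFLEx tumors. Cxcl1 was the steadiest of the group, at 3.08, 3.73 and 3.59 CPM and 5.56 and 5.85 CPM (-0.72 ± 0.59 SE, adjusted p = 0.836). Cxcl5 was at 4.83, 2.69 and 2.72 CPM in dFLEx and 0.645 and 6.83 CPM in KP, on either side of the dFLEx range. The receptor Cxcr2 was at 0.448, 0.971 and 1.16 CPM and 0.242 and 0.813 CPM, and Cxcr1 had 2 counts in all. Neutrophil markers summed to between 7.54 and 66.2 CPM in dFLEx and to 7.28 and 42.6 CPM in KP 3800 and 3802, so KP 3802 was also the KP tumor with more of these. The part of these cells in the Cxcl3 and Cxcl2 values was not tested.

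The Cxcl12 axis was abundant in both models. Cxcl12 is made by fibroblasts and other stromal cells, Cxcr4 is its signaling receptor, and Ackr3 takes it up. Cxcl12 was at 79.4, 60.9 and 84.01 CPM in dFLEx and 85.2 and 124 CPM in KP. The groups were separate by the smallest of margins, with dFLEx 170025 and KP 3800 1.01-fold apart (-0.48 ± 0.53 SE, adjusted p = 0.888). Cxcr4 was at 60.7, 20.5 and 24.5 CPM in dFLEx and 59.6 and 43.3 CPM in KP, with dFLEx 170019 the highest of the 5 tumors. Ackr3 was at 28.1, 21.6 and 42.5 CPM in dFLEx, 160.3 CPM in KP 3800 and 25.97 CPM in KP 3802. Its log2 fold change of -1.60 ± 0.79 SE became 0.41 without KP 3800.

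Cxcl16, a membrane-bound ligand of macrophages and dendritic cells, was at 45.9, 29.4 and 17.1 CPM in dFLEx and 64.3 and 115 CPM in KP (-1.54 ± 0.63 SE, adjusted p = 0.438). Its receptor Cxcr6, found on tissue-resident T cells, was at 3.63, 1.51 and 1.902 CPM and 3.44 and 4.06 CPM, and the groups overlapped. Ccl22, which attracts regulatory T cells through Ccr4, was at 0.547, 2.15 and 1.31 CPM in dFLEx and 3.68 and 6.34 CPM in KP (-1.90 ± 0.79 SE, adjusted p = 0.45). Ccl17, the other Ccr4 ligand, was at 2.64, 2.08 and 0.781 CPM and 3.59 and 1.79 CPM with overlapping groups, and Ccr4 did not exceed 0.975 CPM in any tumor.

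The lymphoid-homing members gave 1 lower receptor and ligands that did not separate. Ccr7, which brings dendritic cells and naive T cells to lymph nodes, was at 2.06, 2.55 and 1.39 CPM in dFLEx and 5.401 and 7.96 CPM in KP (-1.74 ± 0.65 SE, adjusted p = 0.385). Its ligand Ccl21a was at 13.9, 16.5 and 4.71 CPM and 12.3 and 41.4 CPM, and Ccl19 was at 0.448, 0.642 and 0.151 CPM and 0.0269 and 1.34 CPM. The Ccl19 level of KP 3800 lay under its limit of 3 counts, 0.0403 CPM. The B cell attractant Cxcl13 was at 2.84, 1.09 and 2.72 CPM in dFLEx and 2.02 and 1.71 CPM in KP, and its receptor Cxcr5 was at 0.522, 0.468 and 0.214 CPM and 0.242 and 1.38 CPM. Both had overlapping groups. Ccl21a has near-identical copies in the mouse genome, and reads with several alignments were not counted, so its level is uncertain and Ccl21b, Ccl21d, Ccl21e and Ccl21f had no counts.

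On the higher side, Cxcl14 stood out by its level. Cxcl14 is a CXC ligand of skin, muscle and other tissues that draws in monocytes and dendritic cells. It was at 251, 303 and 142 CPM in dFLEx 170019, 170024 and 170025 and at 49.3 and 103 CPM in KP 3800 and 3802 (chr13:56436456-56444364; 1.61 ± 0.65 SE, adjusted p = 0.427). Every dFLEx tumor exceeded both KP tumors, the closest pair by 1.37-fold, and the log2 fold change stayed between 1.33 and 2.25 when any 1 tumor was left out. Myocyte markers, which summed to 7631, 30156 and 7961 CPM in these dFLEx tumors and to 1091 and 3776 CPM in KP, were also higher in all 3. Of the 6 fibroblast markers, Col1a1 (893, 2252 and 5105 CPM in dFLEx, 677 and 442 CPM in KP) and Lum (139.9, 147 and 61.5 CPM, 15.3 and 51.6 CPM) were higher in every dFLEx tumor. The groups overlapped for Col3a1, Pdgfra, Dcn and Pdpn, with Dcn highest in KP 3802 and Pdpn highest in KP 3800. The part of these cells in the Cxcl14 level was not tested.

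Ccl24 and Ccr3, an eotaxin ligand and the eotaxin receptor of eosinophils, were both higher in every dFLEx tumor, at low levels. Ccl24 was at 1.94, 2.67 and 3.05 CPM in dFLEx and 0.457 and 0.488 CPM in KP, a gap of 3.98-fold (2.43 ± 0.83 SE, adjusted p = 0.328). Ccr3 was at 1.39, 1.37 and 1.08 CPM and 0.107 and 1.02 CPM (1.22 ± 1.16 SE, adjusted p = 0.867), its closest pair of tumors differed by 1.07-fold only, and its log2 fold change was 0.49 without KP 3800 and 3.57 without KP 3802. Ccl11, the other eotaxin with counts, was at 3.43, 9.48 and 7.12 CPM in dFLEx and 2.02 and 8.21 CPM in KP, without a separation of the groups, and Ccl26 had no counts.

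The atypical receptors Ackr1, Ackr2 and Ackr4 lay higher in every dFLEx tumor, while Ackr3 did not. Ackr2, a scavenger of inflammatory CC chemokines best known from lymphatic endothelium, was at 1.12, 2.22 and 7.75 CPM in dFLEx and 0.806 and 0.569 CPM in KP (2.42 ± 1.04 SE, adjusted p = 0.467). Much of its mean came from dFLEx 170025, and without that tumor the log2 fold change was 1.26. Ackr1, the chemokine binder of venular endothelium and red cells, was at 2.49, 4.49 and 2.05 CPM and 0.296 and 1.95 CPM (1.44 ± 0.99 SE, adjusted p = 0.773), with a log2 fold change of 0.78 without KP 3800 and 3.36 without KP 3802. Ackr4, which clears Ccl19 and Ccl21, was at 3.68, 1.73 and 0.831 CPM and 0.739 and 0.528 CPM (1.70 ± 0.97 SE, adjusted p = 0.67), and without dFLEx 170019 its log2 fold change was 0.98. The endothelial marker Pecam1 was at 85.03, 132 and 206 CPM in dFLEx and 37.9 and 25.5 CPM in KP. The 3 lymphatic markers summed to 14.7, 52.1 and 171 CPM in dFLEx and to 31.5 and 45.6 CPM in KP, and they did not move together. Flt4 (5.42, 37.1 and 131 CPM in dFLEx, 13.8 and 2.56 CPM in KP) and Lyve1 (8.71, 13.8 and 39.6 CPM, 7.62 and 41.4 CPM) overlapped between the groups, and Prox1 (0.522, 1.3005 and 0.705 CPM, 10.1 and 1.71 CPM) was lower in every dFLEx tumor. The part of these cells in the receptor levels was not tested.

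On a scale that allows genes to be compared (TMM-scaled CPM per kilobase of gene length), Ccl8 and Cxcl14 were the 2 leading ligands of every dFLEx tumor. Ccl8 also led in both KP tumors. Ccl8 made up 35.8%, 26.2% and 25.98% of the summed ligand level in dFLEx 170019, 170024 and 170025, and 11.01% and 31.9% in KP 3800 and 3802. Cxcl14 made up 24.2%, 30.995% and 17.9% in dFLEx and 7.51% and 4.93% in KP. In contrast, Cxcl9, Cxcl10, Cxcl11 and Ccl5 together made up 0.517%, 1.25% and 0.731% in the dFLEx tumors, against 14.8% and 7.09% in KP. The sum over all ligands per kilobase was 568, 536 and 432 in dFLEx and 359 and 1145 in KP, so the pool as a whole did not separate the groups.

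The receptor pool did separate them. The summed receptor level per kilobase was 62.1, 40.0 and 47.5 in dFLEx and 142 and 164 in KP. Cxcr4 was the leading receptor of each dFLEx tumor, at 54.1%, 28.3% and 28.5% of the pool, followed by Ackr3. In KP 3800 Ackr3 led with 47.9 CPM per kilobase, and in KP 3802 Cx3cr1 led, with 57.7% of the pool.

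**Figure D3:**
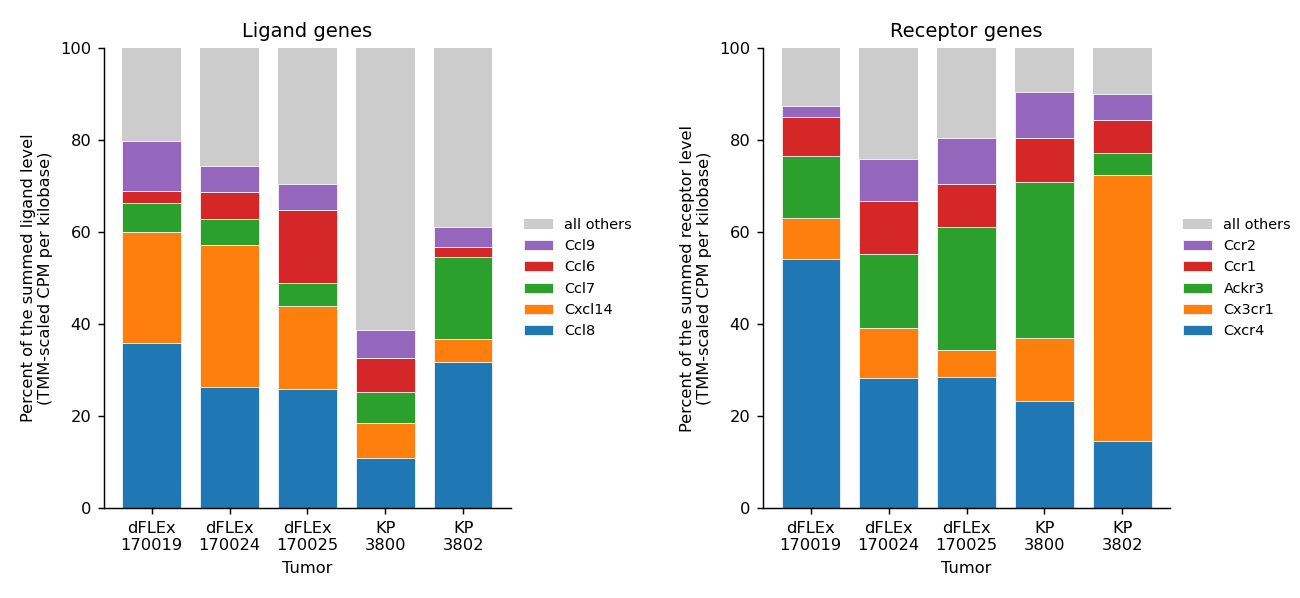
Share of each gene in the summed ligand level (left) and receptor level (right) of each tumor (y axis, percent of TMM-scaled CPM per kilobase; x axis, tumor), with the 5 genes of highest mean share in color and all others in grey. Ccl8 and Cxcl14 filled most of the lower part of the dFLEx ligand bars, and Cx3cr1 took 57.7% of the receptor bar of KP 3802.

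The KP tumors were unlike each other. Of the 54 tested members, 16 differed by more than 4-fold between KP 3800 and KP 3802, 14 of them higher in 3802 and 2 in 3800. No share of all tested genes stands beside this count, so it is not read as particular to the members. Some of the 16 were scarce, such as Ccl19 with 102 counts over all libraries. Among them were Cxcl3 (22.95-fold), Ccl8 (9.23-fold), Ccl7 (8.56-fold) and Cx3cr1 (4.82-fold) on the side of 3802 and Ackr3 (6.17-fold) on that of 3800. Leaving out 3802 changed the sign of the fitted difference of 10 members, leaving out 3800 that of 5, and leaving out a single dFLEx tumor that of 2 to 4. Cxcl10, Cxcl9, Ccl5, Ccr1, Ccr2 and Ccr7 were within 2-fold of each other in the KP tumors. Without 3802 the log2 fold changes of Ccl2 (from -2.19 to -1.32), Ccl12 (from -2.65 to -1.44), Ccl4 (from -2.16 to -1.39), Cxcl2 (from -2.52 to -1.50) and Cxcl12 (from -0.48 to -0.17) also shrank. The median log2 fold change of all tested genes rose too without 3802, from -0.18 to 0.34. Sign changes over all genes are not given. Neither the sign changes nor these shifts are thus read as particular to the members. The T cell and B cell markers named above were also high in 3802.

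Because macrophage markers were lower in dFLEx, each level was also divided by their summed level in the same tumor, a scale chosen after seeing the data. Of the 18 members that were lower at an unadjusted p under 0.05, 4 remained lower in every dFLEx tumor on this scale, namely Ccl5, Cxcl10, Cxcl11 and Cx3cr1, and for the other 14 the groups overlapped. Over all tested genes, 2.09% were lower in every dFLEx tumor on this scale, but the 18 were chosen by their counts in the same tumors, so nothing is read from that share. Ccl5 was at 1.14, 2.299 and 0.873 CPM in dFLEx and 12.7 and 10.2 CPM in KP per 1000 CPM of macrophage markers. Cxcl10 was at 1.55, 4.11 and 2.59 CPM and 11.8 and 7.63 CPM on this scale. Cx3cr1 was at 19.7, 15.6 and 11.6 CPM and 33.5 and 80.3 CPM. These gaps were narrower than on the CPM scale.

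For the monocyte axis the groups no longer separated on that scale. Ccl2 was at 6.84, 11.7 and 17.5 CPM in dFLEx and 13.4 and 17.4 CPM in KP per 1000 CPM of macrophage markers. Ccr2 was at 8.15, 19.9 and 29.4 CPM and 36.9 and 11.9 CPM. Cxcl12 and Cxcl1, whose CPM were lower in every dFLEx tumor by gaps of 1.01-fold and 1.49-fold, were higher in every dFLEx tumor on this scale. The divisor was itself higher in both KP tumors (1083 to 1269 CPM in dFLEx, 2644 and 5311 CPM in KP). Dividing by it raises every gene in dFLEx relative to KP, so nothing is read from this reversal of small gaps. The same holds for the lost separation of Ccl2, Ccl12 and Ccr2, whose CPM gaps were 1.87-fold, 1.93-fold and 1.98-fold. The 4 of the 18 members that stayed lower had the widest CPM gaps, of 3.54-fold to 11.7-fold. Of the 9 macrophage markers, 7 had a lower fitted level in dFLEx, 4 of them at an unadjusted p under 0.05 (Adgre1, C1qa, C1qb and Lyz2, all 4 lower in every dFLEx tumor), and Cd68 (0.24) and Cd163 (0.79) had a higher one. C1qa alone gave 3099 of the 5311 CPM of KP 3802.

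**Figure D4:**
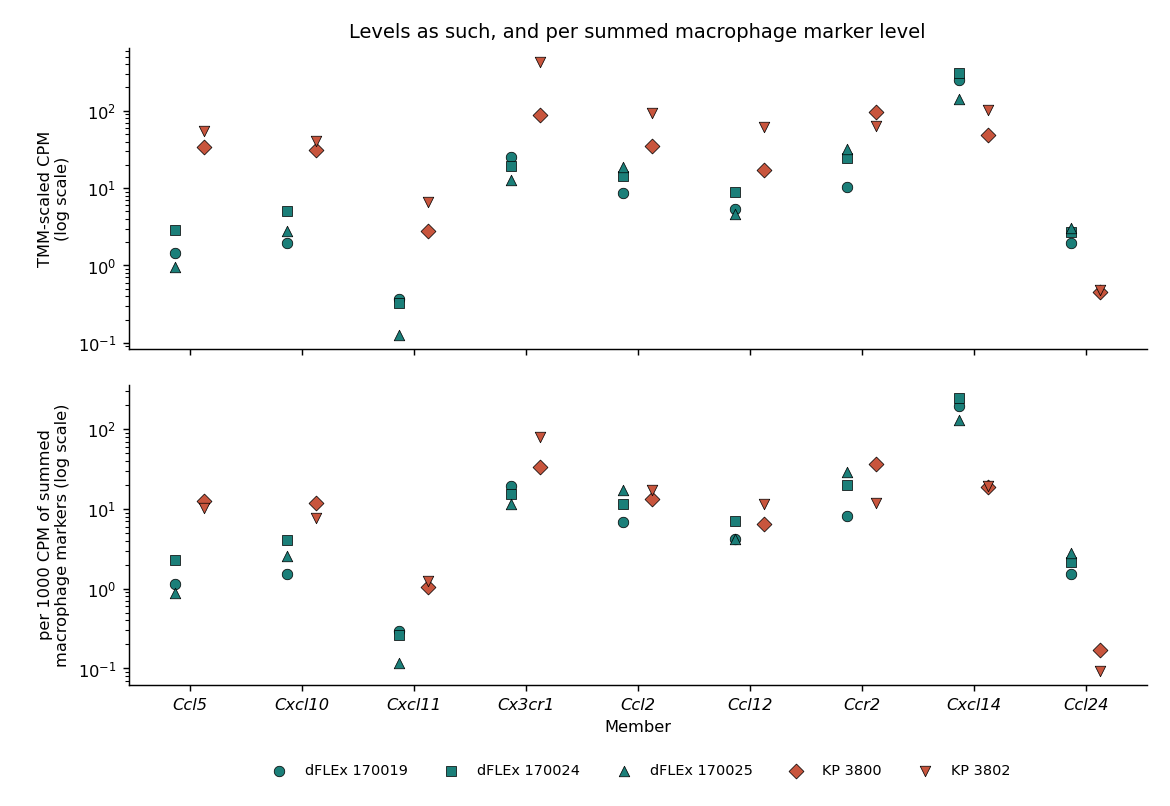
Levels of 9 members in each tumor as TMM-scaled CPM (top) and per 1000 CPM of summed macrophage markers (bottom), both on a log scale. Ccl5, Cxcl10, Cxcl11 and Cx3cr1 kept the dFLEx tumors (green) below the KP tumors (orange) in both panels, and for Ccl2, Ccl12 and Ccr2 the points mixed in the lower one. The divisor was higher in both KP tumors, so nothing is read from this mixing.

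Among genes of the pathway outside the chemokine names, 7 of the 15 tested inducers and transcription factors were lower in dFLEx at an unadjusted p under 0.05, against 4.93% of all tested genes, and none was higher, against 5.65%. The list was not tested as a whole, and Il1a, among the 7, passed the filter on low counts through KP tumors only. Irf7, a driver of type I interferon genes, was at 9.75, 15.1 and 16.2 CPM in dFLEx and 68.6 and 274 CPM in KP (-3.65 ± 0.73 SE, adjusted p = 0.11). Il1a was at 0, 0.0347 and 0.0252 CPM and 1.505 and 0.894 CPM. Its dFLEx levels all lay under the limit of 3 counts in the same tumor (0.0746, 0.052 and 0.0378 CPM). A difference was thus built in by the filter, and no fold change is given. Irf1, a mediator of the interferon gamma response, was at 22.9, 27.2 and 23.8 CPM and 67.8 and 55.2 CPM (-1.32 ± 0.53 SE, adjusted p = 0.422). Nfkb1 (-1.82), Nfkb2 (-1.43) and Il1b (-1.79), by their log2 fold changes, were also lower in every dFLEx tumor. Ltb, the last of the 7, was at 4.75, 5.29 and 2.17 CPM in dFLEx and 5.09 and 44.6 CPM in KP, so KP 3800 lay among the dFLEx tumors and KP 3802 alone stood above them (-2.61 ± 0.92 SE, adjusted p = 0.348). Ifng did not pass the filter on low counts. None of the 15 had an adjusted p under 0.05 in edgeR.

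Among 21 genes of receptor signaling, Arrb2 was lower (-1.46 ± 0.58 SE, adjusted p = 0.422) and Grk3 (2.53 ± 0.93 SE, adjusted p = 0.374), Prex1 (2.52 ± 0.80 SE, adjusted p = 0.282) and Jak3 (1.80 ± 0.69 SE, adjusted p = 0.406) were higher at an unadjusted p under 0.05, all by their log2 fold changes, which is 1 lower and 3 higher against the same shares of all genes. Rarres2, which encodes the chemoattractant chemerin, was the sole one of 10 chemokine-related genes outside the naming rule to pass an unadjusted p under 0.05. It was at 6.97, 9.29 and 13.4 CPM in dFLEx and 1.33 and 1.75 CPM in KP (2.68 ± 0.69 SE, adjusted p = 0.194). None of the 4 proteoglycan genes that display chemokines on cell surfaces reached an unadjusted p under 0.05.

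By position, more members of the large clusters had a lower than a higher fitted level in dFLEx. Of all 24743 tested genes, 13940 had a lower one, and 4.93% were lower at an unadjusted p under 0.05. Of the 9 tested Cxcl genes on chromosome 5 (chr5:90907219-96108927), 8 had a lower fitted level in dFLEx, 5 of them at an unadjusted p under 0.05, with a median log2 fold change of -2.27. Of the 11 Ccl genes on chromosome 11 (chr11:81926397-83555509), 8 were lower by fitted value and 5 at an unadjusted p under 0.05, with a median of -1.97. Ccl1, Ccl6, Ccl7, Ccl8, Ccl9 and Ccl11, which did not separate the groups, lie in the same stretch, and Ccl7 is among its 5. On chromosome 5, the 8 lower genes include Cxcl5 (-0.12) and Cxcl15 (-0.15), each smaller in size than its SE. Genes in a cluster are not independent replicates, and no test was made of a cluster.

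Several levels carry a limit from the counting. Without strand, reads lying over a gene and an overlapping partner were not counted, and 12 members overlap another protein-coding gene. They are Ackr1, Ackr4, Ccl25, Ccl27a, Ccr9, Ccr10, Cx3cr1, Cxcl10, Cxcl11, Cxcl16, Cxcr5 and Cxcr6. Ccl27a and Ccl27b are near-identical copies, with 4485 and 3 counts over all libraries, and their split is uncertain. Besides the 5 members with no counts, Ccl27b, Cxcl17, Ccr6 and Cxcr1 did not pass the filter.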

How the data were processed

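RNA of each tumor was split into duplicate rRNA-depleted, 150-base paired-end libraries. The authors trimmed reads (Trimmomatic 0.39), aligned them with STAR 2.7.10a to mm39 with an added CIC::DUX4 contig, and deposited raw counts per gene (featureCounts 2.0.3). Per the file headers, strand was ignored, mates were counted singly, and reads with several alignments or over several genes were not counted. The table held 9 of the 10 labelled libraries, with totals of 20503474 to 46302223 counts. Symbols came from GENCODE M39 by Ensembl identifier (98.7% of features), and coordinates are GRCm39.

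Counts were summed per tumor, filtered with filterByExpr, scaled by TMM and compared with edgeR 4.0.16 (glmQLFit, glmQLFTest) over all tested genes, with Benjamini-Hochberg adjustment and a threshold of 0.05. The study's methods name DESeq2, but not how duplicates entered, so DESeq2 1.42.0 served as an alternative. SE was derived from the F statistic (size of the log2 fold change over the root of F). With 3 against 2 tumors, an exact permutation of 1 level has 10 splits and cannot pass 0.05, so none was used. The fit was tested on simulated counts drawn with the same spread between tumors for every gene. It called 2 of 50 genes changed 2-fold, 37 of 49 changed 4-fold and 49 of 50 changed 8-fold. This does not measure recovery in tumors that differ as the KP tumors do. Alternatives were other scalings, filters, libraries as samples, the duplicate number as a block, and leaving out each tumor.

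Members, roles, markers and pathway lists were chosen with earlier results of these data known. The text names members with an unadjusted p under 0.05, the 12 with the highest level per kilobase and the members of listed ligand and receptor pairs. Outside this rule, Ccl1, Cxcl15, Ccl26, Ccl27a, Ccl27b, Ccl21b, Ccl21d, Ccl21e, Ccl21f, Cxcl17, Cxcr1, Ccr6, Ccr8, Ccr9, Ccr10 and Ccl25 are named as copies, neighbors, overlaps or untested members, after their values were seen. Single genes and alleles withheld from reporting are not reported here, though they enter fits and counts. Upstream sequences were read from the GRCm39 genome.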

Additional observations from a re-analysis of the deposited data

How the results depend on the processing

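KP was 2 tumors, and KP 3802 was 1 library. With halved counts, or with the first library of each tumor alone, all 45 members of the naming rule kept their sign and none passed an adjusted p under 0.05, so neither setting moved a call of a member. Depth limits the members near 3 counts. Against 0 members and 45 genes with an adjusted p under 0.05 in edgeR on tumor sums (21 members at an unadjusted p), DESeq2 on tumor sums gave 8 members and 1396 genes. Libraries as independent samples gave 18 members and 3344 genes with edgeR, and 21 members and 4828 genes with DESeq2. With the duplicate number as a replicate block the counts were 15 members and 2387 genes. The number is a label of duplicates, and it does not pair tumors, as the difference between first and second libraries correlated between tumors at -0.012 to 0.068 over 18595 genes. No filter gave 5 members and 880 genes, and a mean of at least 1 CPM gave 0 members and 80 genes. The number of tested genes differed between settings, with 24743 in the main fit and 19538 with libraries in edgeR. These counts are thus not shares of the genes tested. Leaving out 1 tumor gave 0 to 1 members and 0 to 414 genes with an adjusted p under 0.05, and 8 to 17 members at an unadjusted p, the lowest without dFLEx 170024. The causes of these differences were not tested, but libraries as samples add residual degrees of freedom.

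The median log2 fold change of the tested members was -0.98, and it was -0.77 with libraries as independent samples in edgeR, -0.73 with the replicate block, -1.35 with library totals, -1.29 with upper-quartile scaling, -0.77 without a filter and -1.53 at a mean of at least 1 CPM, and -1.28 to -0.17 when 1 tumor was left out, the last without KP 3802. The median of all genes moved from -0.18 to -0.47 with library totals and to -0.34 with upper-quartile scaling.

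Signs changed for 13 of the 45 members of the naming rule. Cxcl5 was at 0.15 with libraries in edgeR, 0.072 with libraries in DESeq2, 0.58 with the replicate block and 0.13 without a filter. Ccl19 (0.27) and Ccl8 (0.18) changed with the block, Ccl9 (-0.24) and Cxcl13 (-0.052) with library totals, Ccl9 (-0.14) and Ccl11 (-0.13) with upper-quartile scaling, and Ccl9 (-0.083) at a mean of at least 1 CPM. When 1 tumor was left out, the ranges were -2.37 to 0.41 for Ackr3, -0.13 to 1.74 for Ccl11, -0.95 to 0.19 for Ccl17, -1.54 to 3.86 for Ccl19, -0.16 to 0.94 for Ccl6, -2.66 to 0.30 for Ccl7, -1.10 to 1.96 for Ccl8, -0.44 to 0.87 for Ccl9, -1.40 to 0.051 for Ccr4, -0.006 to 1.32 for Cx3cl1, -0.015 to 0.58 for Cxcl13, -0.84 to 2.42 for Cxcl5 and -1.63 to 0.74 for Cxcr5. The other members of the naming rule kept their sign in every alternative fit. At a mean of at least 1 CPM, 38 of the 45 members of the naming rule had a value.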
